A study of Rattus norvegicus with 5 samples.

Results

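The cells described here are barcodes of the TBX18 library at day 3 that carried more RNA of 3 cardiac muscle genes than of 3 collagen genes, split by whether RNA of the TBX18 virus was seen in them. M is the summed level of Tnnt2, Actc1 and Myh6, and S the summed level of Col1a1, Col1a2 and Col3a1, both as CPM, the UMIs of a gene per 1000000 UMIs of the cell. UMIs are molecular tags, counted once for every RNA molecule captured. Of 6781 barcodes in the library, 6489 had at least 500 genes, and 3236 of these had M above 2S. The features hTBX18 and ZsGFP, which held 0 UMIs in the GFP libraries, were taken as RNA of the TBX18 virus. A barcode was called positive when it held at least 1 UMI of either. That gave 1384 positive and 1852 negative barcodes, of 36996 barcodes with at least 500 genes in the 5 libraries of the series. The split was made from the measured values, so the transgenes and the 6 genes of the rule are described and not tested.

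All libraries came from primary ventricular cells of wild type Sprague dawley rats, taken at postnatal day 2 (P2), and held myocytes and non-myocytes. The culture described here received Adeno-TBX18, an adenovirus with the transcription factor TBX18, and was collected at day 3. Beside it stand a culture with Adeno-GFP at day 3, both viruses at day 14, and Adeno-TBX18 with 0.2 µM A83-01, an inhibitor of TGF-beta receptors, labelled 14 days in its title and 3 days in its treatment field. Each group has 1 library, so no test between conditions was possible, and cells of a library are not replicates. Intervals are 95% intervals of counting error alone.

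TBX18 is a T-box transcription factor of the developing sinoatrial node, where the heartbeat starts. Its forced expression in ventricular myocytes is studied as a way to make pacemaker-like cells, which hold less of the contractile apparatus than working muscle. Tnnt2 encodes cardiac troponin T, which ties the calcium switch to the thin filament. Actc1 encodes cardiac alpha-actin, the thin filament itself, and Myh6 encodes alpha-myosin heavy chain, a motor of the thick filament. Col1a1, Col1a2 and Col3a1 encode the chains of type I and type III collagen, made by fibroblasts.

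The 3 muscle genes were all lower in the cells with the most transgene UMIs, and so were Col1a2 and Col3a1. Upstream sequences are shown for the 3 muscle genes of the rule only, as the planned choice needed gene names that were missing. Each is the 250 bases before a RefSeq transcript start in build GRCr8, read 5′ to 3′ on the gene's strand, in lower case, with the T-box core GGTGTGA or its reverse complement TCACACC in capitals.
Actc1, chr3:121271828-121272077, minus strand: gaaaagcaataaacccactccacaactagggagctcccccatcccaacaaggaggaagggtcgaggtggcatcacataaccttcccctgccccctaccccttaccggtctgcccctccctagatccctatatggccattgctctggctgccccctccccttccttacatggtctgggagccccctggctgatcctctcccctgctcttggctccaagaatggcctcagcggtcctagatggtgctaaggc
Myh6, chr15:32411698-32411947, minus strand: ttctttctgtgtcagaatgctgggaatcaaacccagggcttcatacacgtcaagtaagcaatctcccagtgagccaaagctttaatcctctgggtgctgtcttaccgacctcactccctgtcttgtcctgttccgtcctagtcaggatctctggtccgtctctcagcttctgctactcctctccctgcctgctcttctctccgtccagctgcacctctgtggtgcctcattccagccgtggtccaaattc
Tnnt2, chr13:49818873-49819122, plus strand: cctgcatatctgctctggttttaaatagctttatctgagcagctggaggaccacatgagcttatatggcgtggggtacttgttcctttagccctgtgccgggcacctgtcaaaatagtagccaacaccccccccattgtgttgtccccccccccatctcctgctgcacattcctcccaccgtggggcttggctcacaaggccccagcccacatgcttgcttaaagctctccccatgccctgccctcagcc
Tnnt2, chr13:49823809-49824058, plus strand: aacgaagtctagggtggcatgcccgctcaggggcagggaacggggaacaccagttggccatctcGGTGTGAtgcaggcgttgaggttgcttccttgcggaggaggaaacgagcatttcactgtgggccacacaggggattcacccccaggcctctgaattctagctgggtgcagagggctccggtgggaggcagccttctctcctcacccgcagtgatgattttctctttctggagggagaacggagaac
The core was found in 1 of these 4 windows, the downstream Tnnt2 start, beginning 186 bases before it. It was found in 1077 of all 33469 windows of this length (3.22%). These letters are a description and show neither binding nor its absence.

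Transgene RNA was sparse in most positive cells. The sum of hTBX18 and ZsGFP ranged from 1 to 103 UMIs with a median of 2, and 589 of the 1384 cells (42.6%) held exactly 1. Both features were seen in 575 cells, hTBX18 alone in 342 and ZsGFP alone in 467. Positive cells were 42.8% of the M-above-2S barcodes (Clopper-Pearson interval 41.1 to 44.5%; median 29999 UMIs), against 7.19% of 2922 barcodes with S above 2M (6.28 to 8.18%; median 28102 UMIs) and 1.37% of 292 barcodes under 500 genes (0.375 to 3.47%; median 10122 UMIs). The share climbed with depth, over 10 equal groups of cells by total UMIs, from 29.3% in the shallowest to 59.3% and 56.8% in the deepest pair. With every cell thinned to 10000 UMIs it was 24.6% (23.1 to 26.2%; 221 shallower cells left out), and 3.13% among barcodes with S above 2M. A negative barcode is therefore one without a captured transgene UMI, which does not show that the cell lacked the virus. The GFP library at day 3 held 0 UMIs of hTBX18 and of ZsGFP, and the TBX18 library held 1 UMI of EGFP. Between 7 and 19 cell barcodes were shared with each of the other 4 libraries.

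The cell name could not be checked against markers of its own, since the only genes that can be named are the 6 that chose the cells. Of the 3236 barcodes, 1203 held 30000 CPM of M or more and 988 held 20000 to 30000 CPM. A tail of 417 barcodes met the rule with M under 5000 CPM, because S was lower still, and for these the word myocyte rests on little RNA. Of the 417, 255 were positive (61.2%, 56.3 to 65.9%) and 162 negative. The negative ones carried ENSRNOG00000048771 at 1338 CPM and ENSRNOG00000024159 at 1652 CPM, against 2.67 and 5.16 CPM in negatives with M of 5000 CPM or more. The positive ones held 13.2 and 22.8 CPM of these. The main contrasts are given with and without the tail, by a limit chosen after seeing the data. At the cut itself, 187 barcodes with M between 2S and 4S were 48.7% positive, and 213 just outside, with M between S and 2S, were 40.4% positive.

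**Figure D1:**
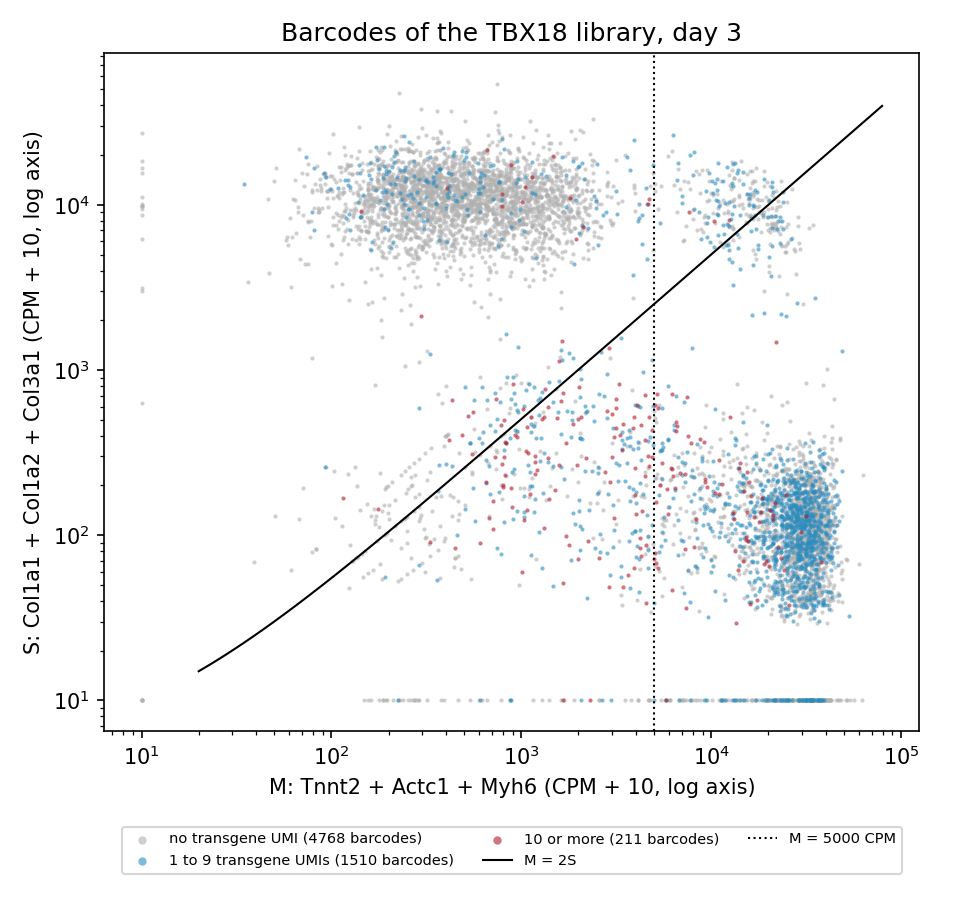
Each point is 1 of the 6489 barcodes, with M on the horizontal and S on the vertical axis (CPM plus 10, log axes); the line marks M = 2S and the dotted line M = 5000 CPM. Of 211 barcodes with 10 or more transgene UMIs, 176 lie on the M side of the line, many of them left of the dense group of muscle-rich cells.

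To compare cells of like depth, equal numbers of positive and negative cells were drawn from each of 20 bins of total UMIs, 1257 of each, with medians of 31243 and 31191 UMIs, which left out 127 positive and 595 negative cells. Actc1 stood at 10708 CPM in positive and 14555 CPM in negative cells, a log2 ratio of -0.44 (-0.45 to -0.44). Over single cells, its quartiles were 1269, 10922 and 16012 CPM in the positive and 10206, 15210 and 19156 CPM in the negative group. The lower quartile thus differed far more than the upper one, and the groups overlapped over most of their range. Tnnt2 stood at 5605 against 6473 CPM (log2 ratio -0.21, -0.22 to -0.20), with medians over cells of 5670 and 6652 CPM. Myh6 was nearly level, at 5934 against 6126 CPM (-0.05, -0.05 to -0.04). Its median over cells was higher in the positive group, 6128 against 5979 CPM, while its lower quartile was lower, 2353 against 3853 CPM.

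With M of at least 5000 CPM, 1044 cells a group, the differences were smaller. Actc1 then had a log2 ratio of -0.29, Tnnt2 of -0.11, and Myh6 of 0.09, which is the other direction. Choosing the cells without the gene described gave -0.45 for Actc1, -0.16 for Tnnt2 and -0.04 for Myh6.

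Summed collagen RNA was lower in positive cells, but this did not describe the typical cell. Col1a1 stood at 164 against 263 CPM (log2 ratio -0.69, -0.73 to -0.64), Col1a2 at 96.01 against 203 CPM (-1.08) and Col3a1 at 97.6 against 178 CPM (-0.87). The share of cells with a Col1a1 UMI was higher in the positive group, 71.9 against 64.9%, and so was the median, 40.8 against 32.3 CPM. The sum was carried by a few barcodes, up to 5624 CPM of Col1a1 in 1 negative cell. With M above 5S, which leaves out barcodes near the cut, Col1a1 was higher in positive cells (log2 ratio 0.37), and Col1a2 and Col3a1 came to -0.28 and -0.22. With doublets left out the 3 ratios were -0.47, -0.95 and -0.80.

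Among all other genes, 7910 averaged 5 CPM or more over the groups and were compared. Of these, 666 (8.42%) had a log2 ratio of at least 0.5 in size, 315 higher (3.98%) and 351 lower (4.44%) in positive cells. At a log2 ratio of at least 1 in size there were 64 higher and 114 lower of the 7910 genes. These counts describe 1 library and are not counts of changed genes, since no error between cultures is known. With M of at least 5000 CPM, 386 of 7822 genes (4.93%) passed the same limit, 157 higher (2.01%) and 229 lower (2.93%), so a large part of the count came with the tail of muscle-poor barcodes. The same split by EGFP in the GFP library at day 3, 1673 cells a group, gave 238 of 7756 genes (3.07%), 20 higher (0.258%) and 218 lower (2.81%). With M of at least 5000 CPM it gave 42 of 7647 (0.549%), 15 higher (0.196%) and 27 lower (0.353%). By the count past 0.5, fewer genes differed with EGFP than with the TBX18 transgenes in these libraries, but by their spread the order turned with the limit on M. The standard deviation of the log2 ratios was 0.38 for the TBX18 transgenes and 0.42 for EGFP over all M-above-2S cells, and 0.29 and 0.14 with M of at least 5000 CPM.

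**Figure D2:**
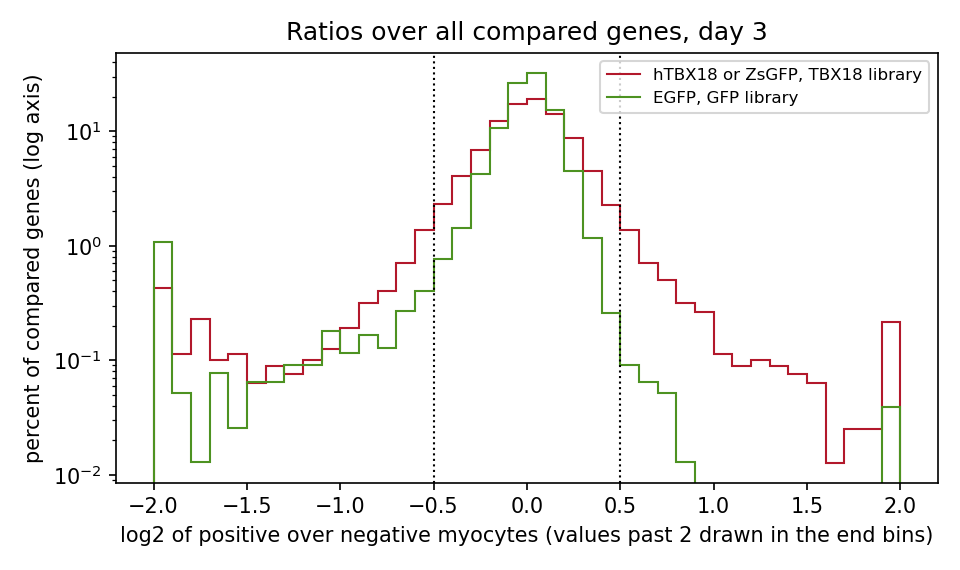
The horizontal axis is the log2 ratio of positive over negative cells at day 3, and the vertical axis the percent of compared genes in each bin of 0.1 (log axis), with dotted lines at 0.5 in size. The TBX18 split is wider on the higher side, where 315 genes passed 0.5 against 20 for EGFP, and both have a lower tail. The lowest bin, which also takes all values past it, holds 0.430% of genes for TBX18 and 1.07% for EGFP. The highest bin holds 0.215% and 0.0387%.

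The tables give Ensembl IDs without names, and the reference at hand holds none of these IDs. Besides the transgenes and the 6 genes named by the rule only the leading 2 IDs in each direction are printed. Ranked by the interval end nearest to 0, ENSRNOG00000050647 came first among the higher genes, at 142 CPM in positive (139 to 146) and 6.20 CPM in negative cells (5.43 to 7.03), a log2 ratio of 4.52 (4.33 to 4.72). It had a UMI in 445 of 1257 positive and 131 of 1257 negative cells. Its ratio barely moved with M of at least 5000 CPM (4.61). In the EGFP split it was near 0 on both sides, 0.617 and 0.725 CPM, so EGFP-positive cells did not hold it at a comparable level. Among barcodes with S above 2M, 210 positive against 210 negative, it stood at 46.6 against 10.8 CPM (log2 ratio 2.11, 1.77 to 2.46).

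ENSRNOG00000011268 stood at 19.2 against 0.651 CPM (log2 ratio 4.88, 4.31 to 5.52), but a UMI of it was seen in only 58 positive and 19 negative cells, and 1 positive cell reached 9388 CPM. It met the mean of 5 CPM only through the positive cells, so a high ratio was partly a condition of its entry. Most of it lay in the muscle-poor tail, at 106 CPM in positive barcodes with M under 5000 CPM and 2.40 CPM in positive ones above, and the GFP library's matched cells held 0 UMIs of it. The IDs that led the lower genes were those of the muscle-poor negatives. ENSRNOG00000048771 stood at 2.34 against 48.5 CPM and ENSRNOG00000024159 at 5.05 against 57.6 CPM, log2 ratios of -4.37 and -3.51, with UMIs in 44 and 79 of the 1257 negative cells. Of the pair, ENSRNOG00000048771 met the mean of 5 CPM only through the negative cells. A sum of 500 CPM or more of the pair was found in 80 barcodes, 6 of them positive and 70 with M under 5000 CPM. Without those 80, chosen by these very IDs, the ratios were 0.58 and 0.37. In the EGFP split of the GFP library they were lower in positive cells as well (-5.29 and -4.13).

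The pooled contrast hid a wide range among positive cells. To order them at one depth, each cell was thinned to 15000 UMIs, which left out 356 shallower cells, and grouped by its remaining transgene UMIs: 0 (1997 cells), 1 (472), 2 to 4 (278) and 5 or more (133). Actc1 stood at 14272, 12578, 8582 and 2157 CPM in these classes, in that order. The highest class was 6.62-fold below the class without transgene UMIs (log2 ratio -2.73, -2.77 to -2.68). Tnnt2 stood at 6424, 6022, 5079 and 3429 CPM, 1.87-fold lower in the highest class. Myh6 did not follow a straight order, with 6409, 7035, 5033 and 1928 CPM, higher at 1 UMI and 3.32-fold lower in the highest class. The 3 genes thus differed in size and order, with Actc1 lower at each step and Myh6 only from 2 UMIs on.

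In the GFP library, the 3 muscle genes differed less between classes. Across the same classes of EGFP UMIs (2135, 849, 820 and 290 cells), Tnnt2 stood at 10255, 10416, 10429 and 10392 CPM. Actc1 stood at 5350, 5330, 5233 and 4788 CPM, and Myh6 at 6474, 6891, 6625 and 6080 CPM. The collagen genes were not level in either library. Col1a2 stood at 120, 64.3, 48.7 and 23.1 CPM in the classes of the TBX18 library and at 35.7, 33.6, 29.6 and 82.3 CPM in those of the GFP library. Col3a1 stood at 114, 73.6, 59.5 and 48.6 CPM and at 54.0, 57.5, 48.2 and 86.7 CPM. Col1a1 stood at 159, 115, 114 and 178 CPM and at 50.6, 51.6, 41.9 and 85.1 CPM. All 3 were thus highest in the GFP library's class with most EGFP UMIs, and in the TBX18 library's highest class Col1a2 and Col3a1 were lowest and Col1a1 highest. The levels of the classes without transgene UMIs were not alike between the cultures, and the cultures and the viruses cannot be told apart there. In the matched negative cells Actc1 was 2.75-fold higher in the TBX18 than in the GFP library, Tnnt2 was 1.56-fold lower and Myh6 was 1.06-fold lower. The collagen genes were 2.89-fold to 5.75-fold higher in the TBX18 library's negatives.

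**Figure D3:**
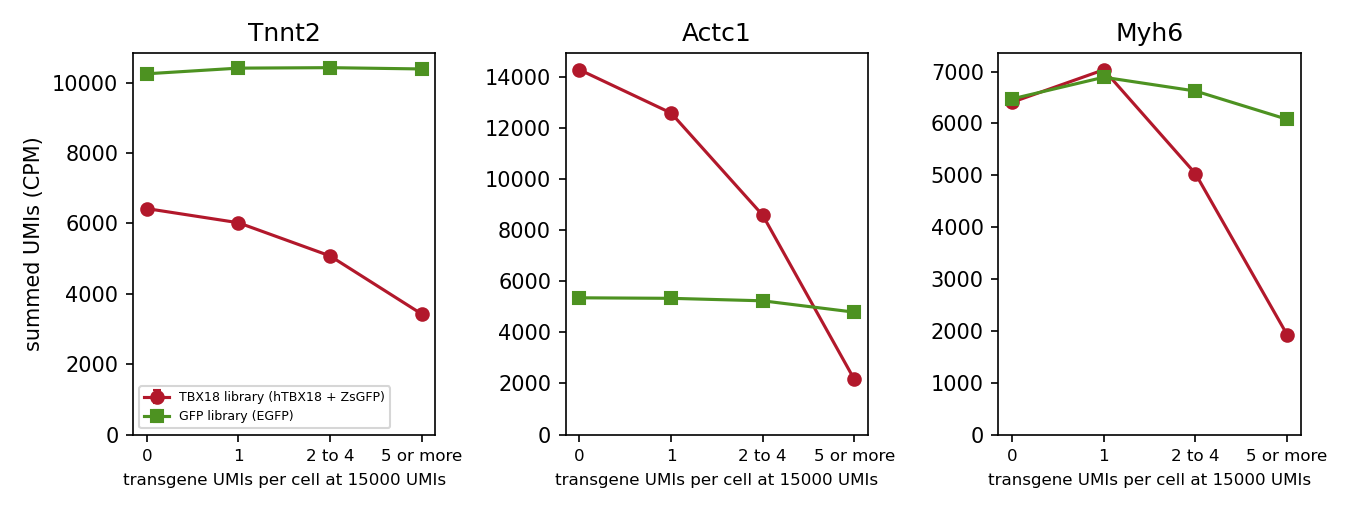
Each panel gives the summed level of 1 gene in CPM against transgene UMIs per cell after thinning to 15000 UMIs, with Poisson intervals mostly smaller than the points. In the TBX18 library (circles) all 3 genes are lowest in the class with 5 or more, at 3429, 2157 and 1928 CPM, while in the GFP library (squares) that class lies at 10392, 4788 and 6080 CPM.

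The lower mean was a shift of most cells of the highest class, not of a few. The median of M after thinning was 29000 CPM without transgene UMIs, 27433 with 1, 19267 with 2 to 4 and 4733 with 5 or more. Its upper quartile in the highest class, 9467 CPM, lay below the lower quartile of the class without, 21667 CPM. Barcodes with M under 5000 CPM were 5.96, 7.20, 20.9 and 53.4% of the 4 classes (interval in the last, 44.5 to 62.1%). In the GFP library they were 4.54, 0.236, 0.122 and 0.690%. Positive barcodes just above the collagen cut count as members and those below it do not, so a cell with very little muscle RNA can leave the class altogether. Of the 211 barcodes with 10 or more transgene UMIs before thinning, 16 had S above 2M and 19 met neither rule. Genes per cell at 15000 UMIs had a median of 2943, 3002, 3008 and 2840, so the highest class held somewhat fewer genes.

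**Figure D4:**
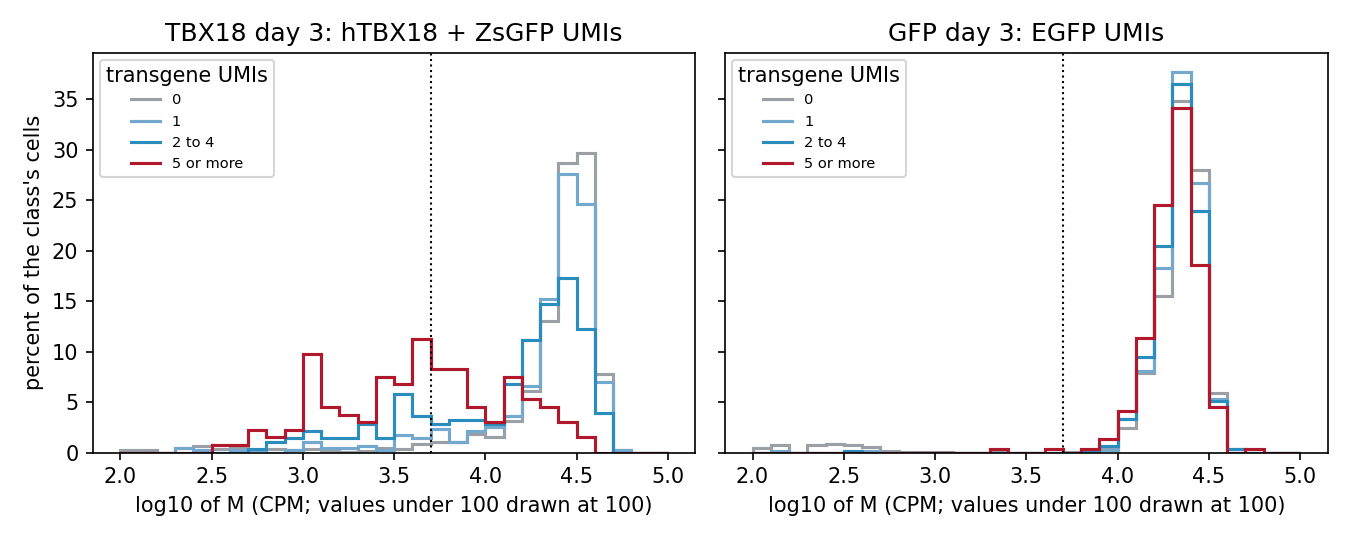
The panels show how M (log10 of CPM) is spread over cells in each class of transgene UMIs, as percent of the class's cells, after thinning to 15000 UMIs; the dotted line marks 5000 CPM. In the TBX18 library the class with 5 or more is broad and 53.4% of it lies left of the line, while in the GFP library 0.690% does.

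With cells limited to M of at least 5000 CPM, the order of the highest class remained with smaller values. Actc1 stood at 15205, 13367, 10854 and 4940 CPM over 1867, 442, 222 and 63 cells, a log2 ratio of -1.62 in the highest class. Myh6 then had a ratio of -0.93 and Tnnt2 of -0.38. Leaving out the 80 barcodes rich in the lower IDs gave -2.59 for Actc1, -1.85 for Myh6 and -0.92 for Tnnt2.

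ENSRNOG00000050647 was higher in the positive classes, at 9.78, 69.5, 290 and 335 CPM in the 4 classes, with a UMI in 7.21, 18.9, 45.3 and 67.7% of cells. The order of the upper classes depended on the depth. Thinned to 10000 UMIs, it stood at 14.0, 105, 389 and 227 CPM, with a UMI in 45.5% of the 121 cells of the highest class. The highest class was then no longer first. This ID and those below were chosen by the positive-against-negative contrast of these same cells. Their direction against the class without transgene UMIs is therefore no separate result. ENSRNOG00000011268 stood at 1.24, 4.24, 10.3 and 30.1 CPM, with a UMI in 8.27% of the highest class. When thinned to 10000 UMIs, it stood at 1.41, 26.8, 8.37 and 226 CPM. The 26.8 and 226 CPM came from 6 of 395 and 16 of 121 cells. ENSRNOG00000048771 stood at 88.0, 3.81 and 1.68 CPM and was not seen in the highest class, where the limit for a count of 0, taken as 3 counts, is 1.504 CPM. The 88.0 CPM came from 69 of 1997 cells. Without the 80 barcodes rich in the lower IDs, the class without transgene UMIs held 0.208 CPM. The positive classes then held 1, 1 and 2 UMIs, too few to give an order.

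Among genes averaging 20 CPM or more, the class with 1 transgene UMI differed from that with none by 0.5 or more in log2 (0.5 CPM added) at 90 of 4033 genes (2.23%). At 2 to 4 UMIs this held for 620 of 4076 (15.2%), 282 higher and 338 lower. At 5 or more it held for 2056 of 3952 (52%), 853 higher and 1203 lower. The same classes of EGFP UMIs gave 2.15, 2.53 and 3.15% in the GFP library. The classes of a library share their class without transgene UMIs, and the highest TBX18 class has the fewest cells and so the widest counting error. The EGFP class of 5 or more had 290 cells against 133, and the part of cell number in the gap was not tested.

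The day 14 tables were deposited on another scale and with another gene list, so their levels are read only within a library. At day 14 a smaller share of cells held the TBX18 transgenes. It was 169 of 1087 M-above-2S barcodes without and 328 of 2455 with A83-01 (15.5 and 13.4%), at medians of 15472 and 19707 UMIs. The day 3 share was 42.8% at a median of 29999 UMIs and 24.6% thinned to 10000 UMIs, so 42.8% is not at like depth. Actc1 stood at 8721 against 10092 CPM without A83-01 (log2 ratio -0.21, -0.23 to -0.19) and at 10803 against 12149 CPM with it (-0.17, -0.18 to -0.16). Tnnt2 had ratios of -0.15 and -0.13. Myh6 had ratios of 0.09 and -0.01. ENSRNOG00000050647 stood at 47.0 against 23.5 CPM (1.00, 0.58 to 1.42) and 52.7 against 13.1 CPM with A83-01 (interval of the ratio 1.68 to 2.34). The EGFP split at day 14 gave -0.01 for Tnnt2, -0.10 for Actc1 and -0.09 for Myh6, so the difference for Actc1 there was not confined to TBX18 libraries. ENSRNOG00000050647 had a ratio of -0.71 in it, from 30 and 49 UMIs.

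The collagen genes had no common direction across libraries. With A83-01, Col1a1, Col1a2 and Col3a1 had log2 ratios of -0.91, -0.78 and -0.75, and without it 0.28, 0.33 and 0.11.

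By dose at 10000 UMIs, the TBX18 library at day 14 had Actc1 at 10186, 9945 and 6286 CPM in cells with 0 (832 cells), 1 (88) and 2 or more UMIs (28). Tnnt2 stood at 13147, 12174 and 9411 CPM, and Myh6 at 10323, 11972 and 8996 CPM. With A83-01 (2177, 141 and 51 cells), Actc1 stood at 13016, 11140 and 8686 CPM, Tnnt2 at 10944, 9813 and 8588 CPM, and Myh6 at 12038, 11104 and 10376 CPM. The classes with most transgene UMIs had the lowest level of all 3 genes in both libraries, over few cells. In the GFP library at day 14, by EGFP UMIs (922, 245 and 417 cells), Actc1 stood at 10923, 10418 and 9951 CPM and Myh6 at 12503, 12530 and 11489 CPM, also lowest in the highest class. Tnnt2 stood at 11702, 11550 and 11679 CPM there. ENSRNOG00000050647 stood at 20.6, 28.4 and 85.7 CPM without and 9.32, 16.3 and 143 CPM with A83-01.

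**Figure D5:**
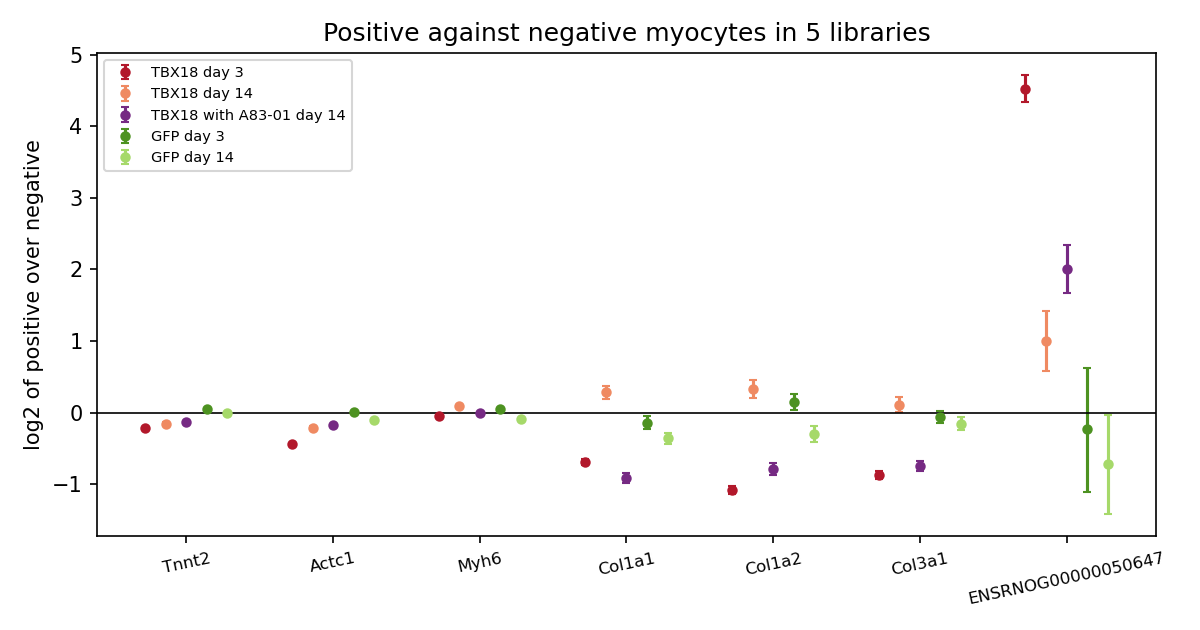
Points are log2 ratios of positive over negative M-above-2S cells at matched depth for the 6 genes of the rule and ENSRNOG00000050647 in the 5 libraries, with 95% counting intervals. Tnnt2 and Actc1 lie below 0 in the 3 TBX18 libraries, and ENSRNOG00000050647 lies above 0 there, highest at day 3 (4.52).

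The genes past 0.5 at day 3 were looked up in the same contrast of the other libraries, which hold other cells, among genes compared in both. Of 325 genes lower at day 3, 125 (38.5%) were lower in the TBX18 library at day 14, where 5.46% of all genes were, and they made 29.9% of its 418. Of 254 lower genes, 69 (27.2%) were lower with A83-01, where 2.21% of all genes were, and they made 42.6% of its 162. The EGFP splits shared lower genes too. At day 3 these were 56 of 317 (17.7%), against 2.33% of all genes, and 32.6% of that list. At day 14 they were 91 of 289 (31.5%), against 2.20% of all genes, and 55.8% of that list. Lower genes were thus found again in every library above that library's share over all genes, EGFP splits included. Past 0.5 in the opposite direction were 24 of them in the TBX18 library at day 14 and 2 with A83-01. In the EGFP splits it was 4 at day 3 and 4 at day 14.

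Of 240 genes higher at day 3, 52 (21.7%) were higher in the TBX18 library at day 14, against 7.50% of all genes, and they made 9.06% of its 574. With A83-01 it was 63 of 218 (28.9%), against 4.48%, and 19.1% of its 329. In the EGFP splits it was 4 of 192 (2.08%) at day 3, against 0.244%, and 7 of 213 (3.29%) at day 14, against 0.554%. Those 2 splits had few higher genes at all, 18 and 41, so their shares and those of the TBX18 libraries stand on different backgrounds and give no order. In each library's own comparison, 8.9% of genes were higher and 6.21% lower for the TBX18 library at day 14, 4.8% and 2.95% with A83-01, and 0.681 and 2.41% in the GFP library at day 14.

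With M of at least 5000 CPM, the share of lower genes found again in the EGFP split at day 3 dropped to 4 of 193 (2.07%, against 0.315% of all genes), while at day 14 it was 68 of 175 (38.9%, against 1.83%). In the TBX18 library at day 14 it was 129 of 220 (58.6%, against 6.43%) and with A83-01 56 of 153 (36.6%, against 1.95%). For higher genes it was 38 of 131 (29.0%, against 7.63%) and 39 of 114 (34.2%, against 4.44%) in these libraries. In the EGFP splits it was 2 of 101 (1.98%, against 0.178%) and 2 of 119 (1.68%, against 0.570%). In the opposite direction these splits held 0 and 5 of the higher genes, and 3 and 3 of the lower ones. The TBX18 library at day 14 held 5 higher and 8 lower genes in the opposite direction, and that with A83-01 held 0 and 3. Under this limit, 9.14% of genes were higher and 7.33% lower for the TBX18 library at day 14 in its own comparison, 4.92 and 2.43% with A83-01, and 0.78 and 2.11% in the GFP library at day 14. No test of these shares was made.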

How the data were processed

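Per the labels' protocols, the libraries used a 10x Genomics 3' kit (v3.1) on dissociated monolayers, and the submitters' processing notes name STAR 2.7.8a, Partek and the build Rnor_6.0. Filters on cells are not given in the sources used here. For day 3 the authors deposited estimated counts: 99.7% of nonzero values were whole within 0.05. For day 14 the authors deposited log2 values (log2 of CPM plus 1), and UMIs were recovered by taking a cell's most common nonzero value as 1. Sums were rounded to whole numbers. Per library, M-above-2S cells with at least 500 genes were matched in 20 bins of total counts, and UMIs summed. Genes averaging 5 CPM or more were compared, without pseudocount; the 4 printed IDs lead a ranking by the interval end nearest to 0. Intervals are exact (Poisson for sums, conditional binomial for ratios, Clopper-Pearson for shares) and cover counting error only.

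Of 17060 feature IDs, 0 were found in the gene table, so the 377 symbols of the planned lists, markers of other cell types and mitochondrial genes could not be read, and the planned naming rule was limited to the 4 IDs; promoters of the rule's muscle genes were printed in place of the planned ones. Scrublet (scanpy 1.11.5) was used to score doublets and marked 3.08% of cells; they were kept except in an alternative. The members and lists were chosen with earlier results of these data known. The code of the contrast was run on simulated counts drawn from the mean profile of negative cells. Those cells differed only in depth and group, so the run does not cover sums carried by a few barcodes. Alternatives changed the matching, filters, cuts and definition of positive cells.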

Additional observations from a re-analysis of the deposited data

Results flagged for a closer look

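For 4 genes the positive-against-negative ratio in M-above-2S cells of the TBX18 libraries without A83-01 had opposite directions at day 3 and day 14. Their counting intervals lay on either side of 0. The difference between days was not tested, each day having 1 such library. Myh6 had a log2 ratio of -0.05 at day 3 and 0.091 at day 14, Col1a1 of -0.69 and 0.28, Col1a2 of -1.08 and 0.33, and Col3a1 of -0.87 and 0.11. For a pair of them the direction at day 3 turned under another setting. Myh6 was 0.095 with M of at least 5000 CPM, where it was 0.13 at day 14, and Col1a1 was 0.37 with M above 5S. In the day 14 library with A83-01, Col1a1, Col1a2 and Col3a1 kept the day 3 direction, at -0.91, -0.78 and -0.75. Myh6 stood at -0.01 there, with an interval spanning 0 (-0.02 to 0.01).

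Transgene UMIs also appeared in barcodes that the comparison did not use. Of the 331 barcodes of the TBX18 library at day 3 that had neither M above 2S nor S above 2M, 127 (38.4%, 33.1 to 43.8%) held a UMI of hTBX18 or ZsGFP, and Scrublet marked 24.5% of the 331 as doublets, against 2.32% of the M-above-2S barcodes. In the GFP library at day 3, 34.6% of 373 such barcodes held an EGFP UMI.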

How the results depend on the processing

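No paired analysis was possible because each group has 1 library. The count of genes past 0.5 (666 of 7910, 8.42%, with 315 higher and 351 lower) moved by over 1.5 times in 5 settings. It was 214 (85 and 129) with a mean of at least 20 CPM and 1524 (794 and 730) with at least 1 CPM. These limits also change how many genes are compared, so neither count is on the same base as 666. It was 1484 (692 and 792) with positives of at least 2 transgene UMIs and 1077 (479 and 598) with positives defined by ZsGFP. It was 386 of 7822 genes (4.93%), 157 higher and 229 lower, with M of at least 5000 CPM, a limit added after seeing the data. The other counts are given without their share of the genes compared. A change in the count and a change in the genes compared can therefore not be told apart for them. Matching on M/(M+S) too left 577 genes past 0.5, 200 of them higher, also given without their share. It made Myh6 0.085, and M of at least 5000 CPM made Myh6 0.095. Col1a1 became 0.37 with M above 5S, and the 2 lower IDs 0.58 and 0.37 without the barcodes rich in them. Of 196 ratios of named genes under alternatives, 96 stayed inside the counting interval, 95 left it with the same direction and 5 turned.

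The share of positive cells was 24.6% after thinning to 10000 UMIs and 40.05% with M of at least 5000 CPM. For 5 or more transgene UMIs against 0, thinning to 10000 UMIs gave log2 ratios of -1.08 for Tnnt2, -3.35 for Actc1, -2.50 for Myh6, 4.02 for ENSRNOG00000050647 and 7.33 for ENSRNOG00000011268. M of at least 5000 CPM gave -0.38, -1.62, -0.93, 6.15 and 6.04 in that order. For ENSRNOG00000011268, UMIs in the highest class were seen in 16 of 121 cells at 10000 UMIs and in 6 of 63 with that limit. Both IDs were chosen by the positive-against-negative contrast of these same cells. With M of at least 5000 CPM, ENSRNOG00000011268 stood at 2.62 CPM in matched positive and 0.472 CPM in matched negative cells, under the mean of 5 CPM. Without barcodes rich in the lower IDs, Actc1 gave -2.59, Myh6 -1.85, ENSRNOG00000050647 5.33 and ENSRNOG00000011268 5.30. The alternative with other marker genes was not run, since their names could not be matched. The cause of these shifts was not tested. With 1 library a condition, differences between cultures have no error.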
